A study of Mus musculus with 14 samples.

Results

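The genes described here are 49 mouse genes that encode splicing kinases, SR proteins, hnRNPs and other regulators of alternative splicing, taken by symbol from a table of 35271 genes. All 49 were found. They were measured by single-cell RNA sequencing in 14 glomerular mesangial cells, the contractile cells between the capillary loops of the kidney filter. The cells came from 1 male wild-type mouse of 8 weeks, whose strain is written C57BL/6 in the design text and C56BL/6 in the sample labels. Glomeruli were collected with magnetic beads and dissociated with enzymes, and single cells were captured and lysed in a Fluidigm C1 instrument. There was no treatment and no second group, so the comparisons below are between genes and between cells of that mouse, without a biological replicate.

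Pre-mRNA splicing removes introns, and the choice among splice sites is set largely by RNA-binding proteins. SR proteins carry RNA recognition motifs and a tail rich in arginine and serine, and mostly promote the use of nearby exons. The SRPK kinases phosphorylate that tail in the cytoplasm and so allow import into the nucleus, where the CLK kinases phosphorylate it further and release SR proteins from nuclear speckles. Heterogeneous nuclear ribonucleoproteins, hnRNPs, coat nascent RNA and often repress exons. Many of these genes regulate their own transcripts through exons that lead to decay or through retained introns. RPKM per gene sums all exons of a gene, so productive and unproductive transcripts are not separated in the values below.

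The cells had 6.60 to 23.8 M reads and 1770 to 5277 genes at an RPKM of at least 1, the limit used here for detection. On a transcript of 1 kb, 3 reads were worth 0.126 to 0.455 RPKM in these cells, and since the cDNA was amplified this floor covers counting error only. Gata3, a marker of mesangial cells in the glomerulus, was at an RPKM of 2518 to 10706 in the 14 cells. Of 9 mesangial markers 6 to 8 were at 10 or more in each cell, and Tbx18 was listed at 0 in all of them. Of 13 endothelial markers 10 were at 10 or more in GL_M_30, against 0 to 5 in the other cells, and of 12 podocyte markers 5 were in GL_M_55, against 0 to 2. The counts were also made without these 2 cells. The 5 proximal tubule markers were below 1 in every cell, and of 6 macrophage markers only 1, Fcer1g, reached 10, in GL_M_85. Of 6 smooth muscle markers at most 1 reached 10 in any cell. No pair of columns was identical, and the correlation of log2 levels across genes was at most 0.62 for any pair of cells.

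As a group these genes were more widely present than most, but few were present everywhere. Of the 49 members, 47 were at an RPKM of at least 1 in some cell, and 2, the kinase gene Clk4 and the SR protein gene Srsf4, were in none. Of 21396 protein-coding genes in the table, 58.2% were below 1 in all cells. Only Srsf2, Rbm25 and Hnrnpl were detected in all 14 cells, 6.12% of the members, against 0.701% of protein-coding genes and 1.68% of the 8946 protein-coding genes detected in some cell. In 7 cells or more, 25 members (51.0%) reached 10, against 4.9% and 11.7% of those 2 backgrounds. The background also holds genes of other tissues, and no background of ubiquitous genes alone was used. The members were also chosen with earlier results of these data known. Without GL_M_30 and GL_M_55 the same 3 members were detected in every cell, and 21 members were at 10 or more in 7 or more cells. The limit of 7 cells was kept with fewer cells, so that count could not rise. The background shares were not computed again.

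Across the 686 member values, 46.4% were at 10 or more and 43.3% below 1, while 10.3% lay between 1 and 10. Over the protein-coding genes detected in some cell, 19.6% of values were at 10 or more and 10.2% between 1 and 10. Another 45.7% were at 0, and 24.5% were above 0 and below 1. The share of all values in the middle class was thus close to that of other genes. Beside it, the members had the larger share at 10 or more and the smaller share below 1. Of the values, 133 were listed at 0, 164 were above 0 and below 1, and 198 were at 100 or more. Among 46 members with some cell at 10 or more, the 150 values above 0 and below 1 had a median of 0.0358% of the same gene's highest cell. They stood for about 8.36 reads at the median, and 24 of them for fewer than 3. Whether such reads came from the cell itself was not tested.

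**Figure D1:**
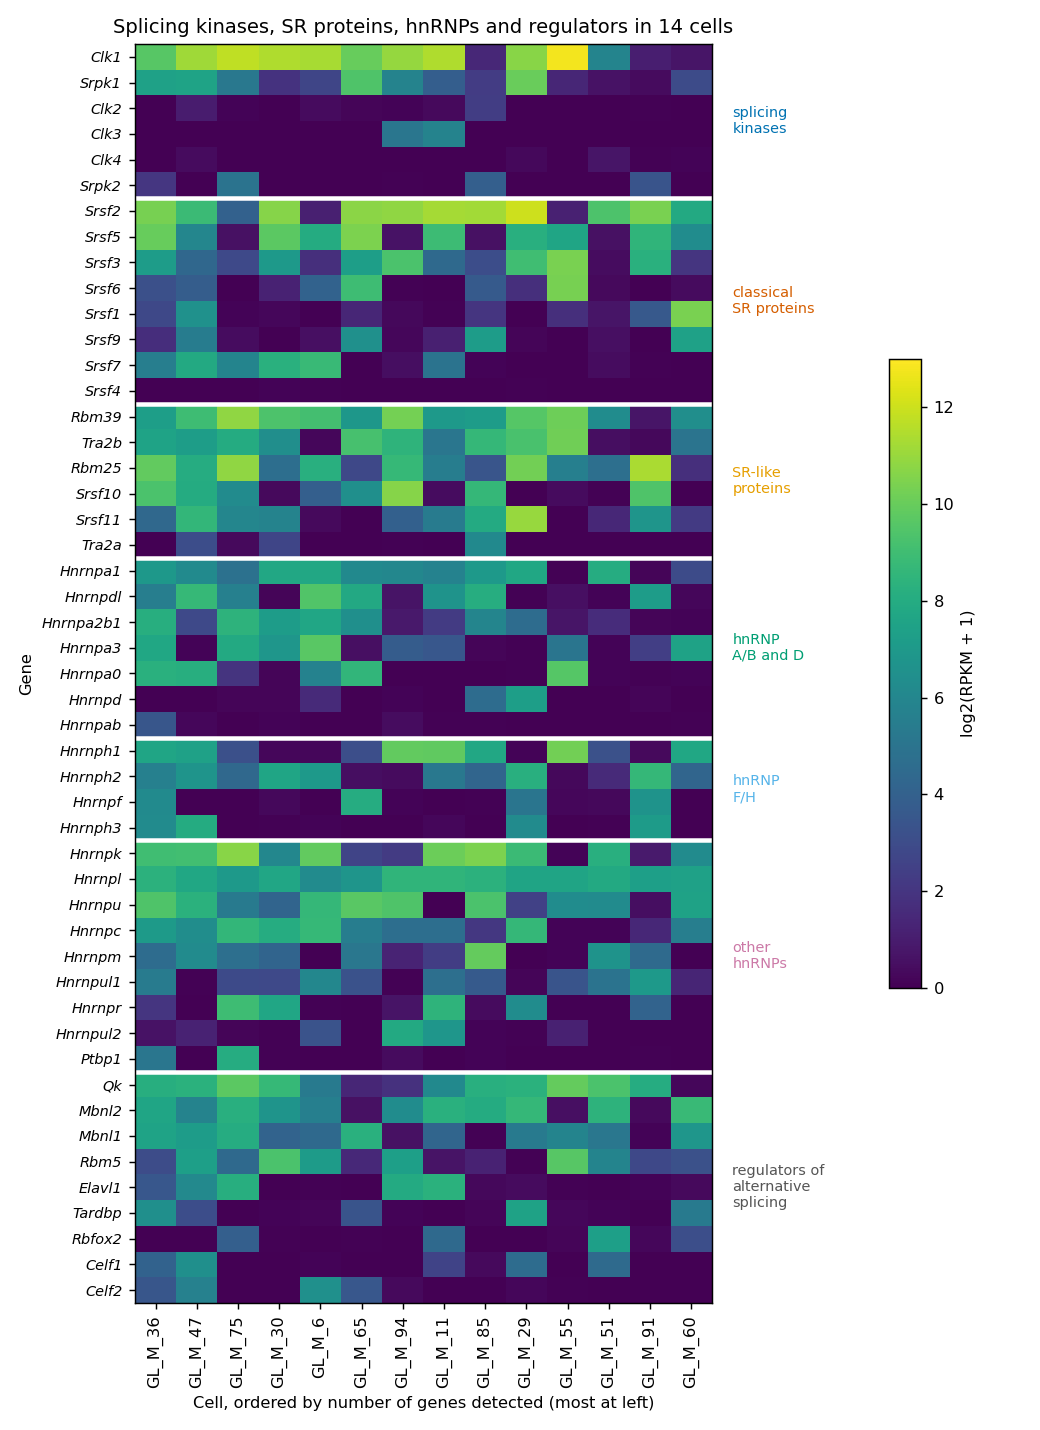
Level of the 49 members, as log2(RPKM + 1) on a colour scale from 0 to 13, in each of the 14 cells (columns, ordered by the number of genes detected). Rows are grouped by class and ordered within it by median. The Hnrnpl row has a similar colour in all cells, from an RPKM of 77.4 to 358, while most other rows alternate between bright and dark cells.

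Of the 6 splicing kinases, Clk1 was by far the highest and the only one at 10 or more in over 7 cells. Clk1 encodes a nuclear kinase of SR proteins. Its RPKM was 0.686 in the lowest cell, 1800.2 at the median and 7062 in the highest, GL_M_55, and it ranked 18 by median among all genes of the table. Clk1 was the highest of the 49 members in 7 of 14 cells. Its cells fell into separate levels. It was between 799.8 and 7062 in 10 cells and at 56.5 in GL_M_51, but at 1.72 in GL_M_85, 1.14 in GL_M_91 and 0.686 in GL_M_60. The last value stands for about 133 reads, and GL_M_60 and GL_M_91 were among the most deeply sequenced cells, with 23.8 and 17.7 M reads. These cells also had the fewest genes detected, 1770 and 1810. The part of this in their low Clk1 was not tested.

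The other 3 CLK genes were low or listed at 0 in nearly all cells. Clk4, the closest relative of Clk1, was listed at 0 in 9 cells and reached at most 0.643, in GL_M_51. Clk2 was detected in 2 cells, at 4.10 in GL_M_85 and 1.02 in GL_M_47. Clk3 was listed at 0 in 12 cells and was at 54.3 in GL_M_11 and 32.8 in GL_M_94. Of its sequence, 14.1% is shared with other genes, mostly with Edc3 on the opposite strand. With these gene lengths and depths 3 reads would give an RPKM of at most 0.0858 for Clk2 and 0.0784 for Clk4.

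The cytoplasmic kinases were led by Srpk1. It was above 0 in all 14 cells and at 10 or more in 7, with an RPKM of 0.314 in GL_M_91, a median of 10.5 and a highest value of 1058 in GL_M_29. Srpk2 was at 10 or more in 2 cells, GL_M_75 at 29.8 and GL_M_85 at 14.2, and was listed at 0 in 8. Srpk2 shares 7.82% of its sequence with other genes, mostly with Kmt2e on the opposite strand, so its low values are less certain where reads of both genes overlap.

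**Figure D2:**
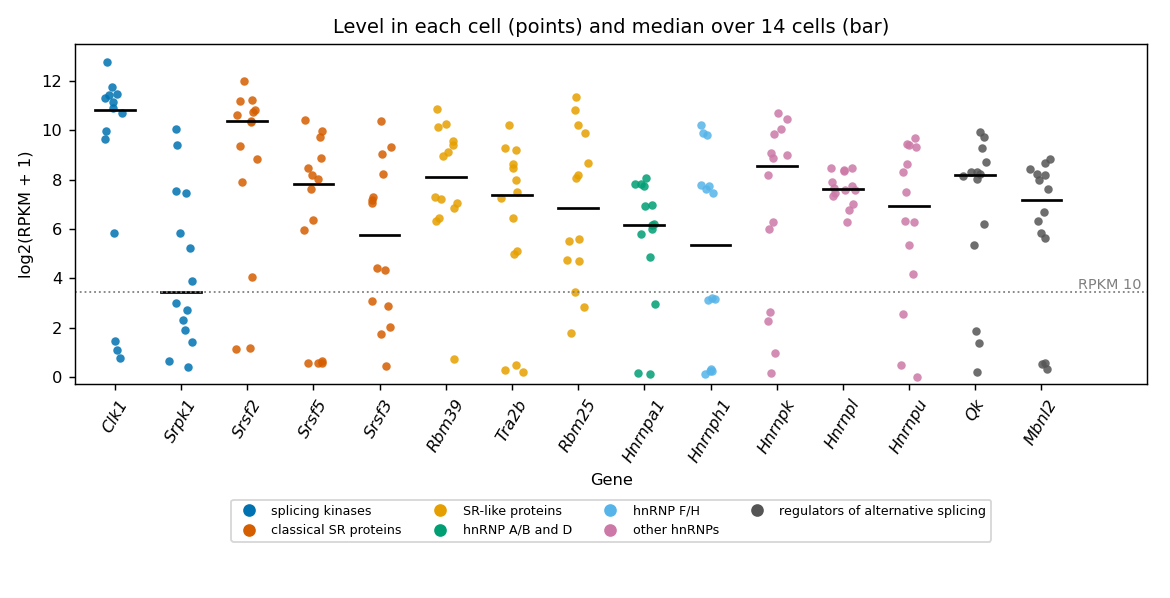
Level of 15 members in each of the 14 cells (points, log2(RPKM + 1)) with the median over cells (bar), coloured by class; the dotted line marks an RPKM of 10. Hnrnpl lies within a narrow band in all cells, whereas Clk1, Srsf2 and Qk have a high group of cells and a few cells near the bottom.

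Among the 8 classical SR proteins, Srsf2 was the highest. Srsf2, also called SC35, is a component of nuclear speckles. It was detected in all 14 cells, from an RPKM of 1.20 in GL_M_6 through a median of 1312 to 4107 in GL_M_29. It was at 239 or more in 11 cells, at 15.7 in GL_M_75, and close to 1 in GL_M_6 and in GL_M_55, where it was 1.28. In those 2 cells Clk1 was at 2524 and 7062, so high Clk1 was found with low Srsf2 as well as with high Srsf2. Srsf2 shares 20.7% of its sequence with other annotated transcripts, mostly Mettl23 and Mfsd11 on the opposite strand, whose medians were 0.

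Srsf5 and Srsf3 followed. Srsf5 was at 60.5 to 1379.7 in 10 cells and at 0.475 to 0.572 in the other 4, GL_M_51, GL_M_75, GL_M_85 and GL_M_94, with a median of 227 and no value between. Srsf3, the smallest of the SR proteins, was more graded, from 0.358 in GL_M_51 through a median of 76.1 to 1343 in GL_M_55, and was at 10 or more in 9 cells.

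The remaining SR protein genes were high in a minority of cells. Srsf1, the prototype of the family, passed 1 in 7 cells and 10 in just 3 of them, with 1343 in GL_M_60, 95.8 in GL_M_47 and 11.5 in GL_M_91. In GL_M_60 it was the highest of all 49 members. Srsf6 was at 10 or more in 5 cells, up to 1279 in GL_M_55 and 490.0 in GL_M_65, with a median of 1.87. Srsf9 was at 10 or more in 4 cells, up to 175 in GL_M_60, with a median of 0.447. Srsf7 had an on or off pattern, defined as 10 or above in 4 cells or more together with 0 in 4 cells or more. It was at 30.2 to 449 in 6 cells and listed at 0 in 4.

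Srsf4 was listed at 0 in 11 cells and reached only 0.0874. A floor of 3 reads for its length is 0.0354 to 0.128. Of the exon bases of Srsf4, 43.0% overlap the noncoding gene Gm12992 on the opposite strand, and no source used here gives how reads there were assigned. Gm12992 was at 208 in GL_M_11 and listed at 0 in the other 13 cells. The part of the overlap in the low values of Srsf4 was not tested.

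The number of CpG dinucleotides in the listed promoters varied among members detected in every cell and was 30 and 49 in the undetected ones. The sequences below run from 250 bases before to 50 bases after the RefSeq start site on GRCm38.p6, 5′ to 3′ on the gene's strand, with CpG dinucleotides in capitals. They are shown because Hnrnpl, Srsf2 and Rbm25 were detected in every cell and Clk4 and Srsf4 in none. Hnrnpl lies at chr7:28810640-28810939 (plus strand), Srsf2 at chr11:116853045-116853344 (minus), Rbm25 at chr12:83635460-83635759 (plus), Clk4 at chr11:51262864-51263163 (plus) and Srsf4 at chr4:131873387-131873686 (plus).
Hnrnpl: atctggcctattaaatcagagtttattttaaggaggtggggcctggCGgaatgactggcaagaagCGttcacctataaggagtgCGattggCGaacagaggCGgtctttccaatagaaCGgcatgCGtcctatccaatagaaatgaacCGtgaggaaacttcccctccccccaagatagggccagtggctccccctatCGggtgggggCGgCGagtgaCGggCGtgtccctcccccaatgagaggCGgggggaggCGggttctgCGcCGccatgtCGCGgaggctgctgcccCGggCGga
Srsf2: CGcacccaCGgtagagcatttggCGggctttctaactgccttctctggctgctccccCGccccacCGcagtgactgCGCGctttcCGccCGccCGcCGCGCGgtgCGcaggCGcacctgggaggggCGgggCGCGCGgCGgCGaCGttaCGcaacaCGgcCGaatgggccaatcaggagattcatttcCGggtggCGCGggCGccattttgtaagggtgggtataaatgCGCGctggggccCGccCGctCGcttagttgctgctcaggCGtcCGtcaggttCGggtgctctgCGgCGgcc
Rbm25: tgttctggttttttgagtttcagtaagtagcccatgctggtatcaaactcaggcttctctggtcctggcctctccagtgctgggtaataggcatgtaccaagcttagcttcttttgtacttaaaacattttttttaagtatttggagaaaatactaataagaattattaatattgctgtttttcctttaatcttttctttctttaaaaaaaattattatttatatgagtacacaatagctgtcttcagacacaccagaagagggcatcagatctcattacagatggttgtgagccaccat
Clk4: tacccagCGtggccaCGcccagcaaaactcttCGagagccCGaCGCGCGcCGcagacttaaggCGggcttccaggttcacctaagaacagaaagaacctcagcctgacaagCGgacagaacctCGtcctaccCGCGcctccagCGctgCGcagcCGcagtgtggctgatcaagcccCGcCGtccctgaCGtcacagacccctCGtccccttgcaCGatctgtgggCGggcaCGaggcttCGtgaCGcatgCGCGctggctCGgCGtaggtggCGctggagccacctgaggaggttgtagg
Srsf4: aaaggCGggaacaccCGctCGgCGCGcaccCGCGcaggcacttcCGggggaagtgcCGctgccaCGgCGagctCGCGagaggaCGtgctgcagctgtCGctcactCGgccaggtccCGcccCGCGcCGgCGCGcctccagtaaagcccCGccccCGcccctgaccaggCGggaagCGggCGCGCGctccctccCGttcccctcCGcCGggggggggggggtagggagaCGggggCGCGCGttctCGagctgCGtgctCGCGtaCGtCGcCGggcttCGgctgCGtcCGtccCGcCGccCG
These 300 bases held 21 CpG in Hnrnpl, 39 in Srsf2, 0 in Rbm25, 30 in Clk4 and 49 in Srsf4. For 46 of the 49 members a promoter was in the RefSeq table, and where a gene had several starts the one with the lowest coordinate was used. On the minus strand that is the most downstream of the listed starts. The members held a median of 28 CpG, against 7 over 27025 genes, and 42 of the 46 lay above that median. Those 27025 were not limited to protein-coding or detected genes. The letters CCAAT, on either strand, were in 23 of the 46 members' promoters and in 37.8% of all. The letters CCGGAA were in 28.3% and 15.1%, and TATAAA in 15.2% and 14.1%. CCGGAA holds a CpG, and the median share of G and C was 62.5% in the members and 52.7% over all. The part of base composition in these shares was not tested. The starts used for Hnrnpl, Rbm25 and Clk4 lie inside the gene as GENCODE M21 annotates it, downstream of its outermost start, so other start sites were not covered. The same holds for members whose promoters are not printed, such as Srpk2 and Celf2.

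The SR-like proteins were the most widely expressed class, with 5 of 6 members at 10 or more in 7 or more cells. Rbm39, a partner of the splicing factor U2AF, was at 79.9 to 1842 in 13 cells, with a median of 326, and at 0.668 in GL_M_91. Rbm25, which binds the U1 snRNP and carries a domain rich in arginine and glutamate, was detected in all 14 cells. Its RPKM ran from 2.41 in GL_M_60 through a median of 157 to 2585 in GL_M_91. GL_M_91 thus had the highest Rbm25 and the lowest Rbm39 of the 14 cells.

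Tra2b, a splicing activator that binds purine-rich enhancers, was at 30.8 to 1172 in 11 cells, with a median of 167, and at 0.159 to 0.404 in GL_M_6, GL_M_51 and GL_M_91. Its paralog Tra2a was at 10 or more in GL_M_85 alone, at 70.1. Srsf11 was above 10 in 9 cells, with a median of 31.1 and 2030.5 in GL_M_29. Srsf10, which represses splicing when dephosphorylated, was at 14.2 to 1619.9 in 8 cells and at 0 to 0.359 in the other 6.

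In the hnRNP A/B and D class, Hnrnpa1 was the most widespread, at 10 or more in 11 of 14 cells. Hnrnpa1 represses exons and shuttles between nucleus and cytoplasm. Its RPKM was 0.0716 in GL_M_55, 71.2 at the median and 265 in GL_M_51. It shares 28.2% of its sequence with other annotated transcripts, 20 genes in all and led by the sequence named Gm10052, so its level is uncertain. Hnrnpdl was at 46.4 to 720.5 in 8 cells and below 1 in the other 6. Hnrnpa3 was at 10 or more in 8 cells, up to 810.0 in GL_M_6, but 27.1% of its sequence is shared.

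Hnrnpa2b1 was above 10 in 7 cells, with a median of 14.6 and a highest value of 338 in GL_M_75. Hnrnpa0 was at 52.9 to 770.5 in 5 cells and at 2.94 or below in the rest. Hnrnpd, whose product binds AU-rich elements, was at 158 in GL_M_29 and 23.2 in GL_M_85 and at 1.97 or below elsewhere. Hnrnpab was detected only in GL_M_36, at 10.2. Of its exon bases 29.1% overlap Phykpl on the opposite strand.

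The 4 genes of the F/H class, whose products bind runs of G, were each high in some cells and near 0 in others. All 4 were at 10 or more in GL_M_36, and 3 of them in GL_M_29, GL_M_47 and GL_M_91. Hnrnph1 was at 173 to 1194 in 7 cells, at 7.61 to 8.32 in 3 and at 0.0772 to 0.241 in 4. Hnrnph2, on the X chromosome, was above 10 in 10 cells, with a median of 28.2 and 398 in GL_M_91. Of its sequence, 15.9% is shared with other genes. The 4 cells with the lowest Hnrnph1, GL_M_6, GL_M_29, GL_M_30 and GL_M_91, were the 4 cells with the highest Hnrnph2, at 129 to 398. GL_M_55 and GL_M_94, the cells with the highest Hnrnph1, had Hnrnph2 at 0.206 and 0.306. This contrast was picked out after the values were seen. By correlation, Hnrnph1 with Hnrnph2 was the lowest of 861 member pairs. Hnrnph3 and Hnrnpf had the on or off pattern. Hnrnph3 was at 75.9 to 256 in GL_M_29, GL_M_36, GL_M_47 and GL_M_91 and below 1 elsewhere. Hnrnpf was at 32.5 to 261 in GL_M_29, GL_M_36, GL_M_65 and GL_M_91 and below 1 elsewhere, but it shares 61.9% of its sequence with 11 other genes.

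Hnrnpl varied least among the members that reached 10 in some cell. Hnrnpl, a protein that binds CA repeats, was the only member at 10 or more in all 14 cells, from an RPKM of 77.4 in GL_M_6 through a median of 198 to 358 in GL_M_94. This is a 4.62-fold range. Its mean log2(RPKM + 1) was 7.65 ± 0.66 (SD over 14 cells of 1 mouse), and 13 of the 14 cells were at 108 or more. The 7976 genes averaging at least 1 RPKM were put in 10 bins by mean level. Among the 798 in the highest bin, the median SD was 3.27, and 10 genes had a lower SD than Hnrnpl. Most of that bin dropped under an RPKM of 10 somewhere, so it is a lenient comparison for a steadily present gene. Only 72 genes never dropped under 10, and ranked from the lowest SD among those 72, Hnrnpl was number 11. Only 1.48% of its sequence is shared. On GRCm38 Hnrnpl (ENSMUSG00000015165) is annotated on chromosome 7 from 28808541 to 28822266, plus strand, protein-coding.

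Of the 8 other hnRNPs besides Hnrnpl, Hnrnpk, Hnrnpu, Hnrnpc and Hnrnpm reached 10 in 8 to 11 cells each, the other 4 in 2 to 6. Hnrnpk, which binds C-rich sequence, was the highest of them, with a median of 381 and 1642 in GL_M_75. It was at 62.8 or more in 10 cells and at 5.29 or less in GL_M_55, GL_M_65, GL_M_91 and GL_M_94. Of the Hnrnpk sequence, 17.8% is shared with other genes. Hnrnpu, a nuclear scaffold protein, was at 17.0 to 829 in 11 cells, at 4.8 in GL_M_29, 0.391 in GL_M_91 and listed at 0 in GL_M_11. Hnrnpc, which binds runs of U, was above 10 in 10 cells, with a median of 45.5 and 417 in GL_M_6. Hnrnpm was at 10 or more in 8 cells, with 988 in GL_M_85.

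Hnrnpul1 was low but widespread, detected in 11 cells with a median of 9.05 and a highest value of 125. Hnrnpr was on or off, at 16.5 to 491 in 5 cells and listed at 0 in 5. Hnrnpul2 was at 10 or more in GL_M_94, at 238, and in GL_M_11, at 114. Ptbp1 encodes the polypyrimidine tract binding protein, which represses many exons outside neurons and muscle. It was detected in only 2 cells, at 262 in GL_M_75 and 33.8 in GL_M_36, and was listed at 0 in 8. Ptbp1 shares 18.3% of its sequence with other genes, so its low values are less certain.

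Of the 9 further regulators, Qk, Mbnl1 and Mbnl2 were each at 10 or more in 11 cells. Qk encodes Quaking, a STAR-domain protein that acts in splicing of smooth muscle and glial transcripts and in circular RNA formation. It was at 39.5 to 982 in 11 cells, with a median of 290.2, and at 0.162 in GL_M_60, 1.61 in GL_M_65 and 2.64 in GL_M_94. Mbnl2 and Mbnl1 are muscleblind proteins, which bind YGCY motifs. Mbnl2 had a median of 150.5 and a highest value of 451 in GL_M_60, and was below 1 in GL_M_55, GL_M_65 and GL_M_91. Mbnl1 had a median of 37.0 and a highest value of 307 in GL_M_65, and was below 1 in GL_M_85, GL_M_91 and GL_M_94. GL_M_91, which had only 1810 genes detected, was thus the cell with both muscleblind transcripts below 1.

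Rbm5, a regulator of apoptotic transcripts, was detected in 12 cells and at 10 or more in 7, up to 798 in GL_M_55. The other 5 regulators were below 1 at the median. Elavl1, the RNA stabilising protein HuR, was at 243 to 313 in GL_M_11, GL_M_75 and GL_M_94, at 68.5 in GL_M_47 and at 10.7 in GL_M_36, and was below 1 elsewhere. Tardbp, encoding TDP-43, was at 10 or more in 3 cells, up to 179 in GL_M_29, with 23.3% of its exon bases overlapped by Masp2 on the opposite strand. Rbfox2 was at 161 in GL_M_51, 20.7 in GL_M_11 and 14.4 in GL_M_75. Celf1 and Celf2 were on or off, at 10 or more in 4 cells each and listed at 0 in 7 and 6. The 6 on or off members are 12.2% of the 49, against 3.03% of protein-coding genes and 7.25% of those detected in some cell.

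In several families 1 paralog was higher in most cells with either detected. RPKM is scaled to gene length, but the authors' gene lengths and treatment of reads with several positions are not known. Shared sequence also differs within pairs. It was 28.2% for Hnrnpa1 and 0.591% for Hnrnpa2b1, and 39.5% for Srsf4 and 10.1% for Srsf5. Levels of related genes are therefore set side by side only approximately. For 21 pairs the cells with either gene at 1 or more were compared, and cells with both below that limit were not counted. Clk1 was above Clk4 in 13 of 13 such cells, Tra2b above Tra2a in 11 of 11 and Srsf5 above Srsf4 in 10 of 10. Srsf5 was above Srsf6 in 9 of 11, the exceptions being GL_M_55 and GL_M_85. Hnrnpdl was above Hnrnpd in 8 of 9, with GL_M_29 as the exception. Srpk1 was above Srpk2 in 11 of 13 cells, Mbnl2 above Mbnl1 in 10 of 13 and Hnrnpul1 above Hnrnpul2 in 10 of 13. Hnrnpa1 was above Hnrnpa2b1 in 9 of 12.

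Relatives outside the 49 gave similar contrasts. Ptbp3 was above Ptbp1 in 9 of 9 such cells, with a median of 6.63 against 0, and the neuronal Ptbp2 reached at most 0.377. Hnrnpl was above Hnrnpll in 12 of 14 cells, and Hnrnpll was higher in GL_M_6, at 260 against 77.4, and in GL_M_60, at 480 against 174. Srsf12 was listed at 0 in all cells, while Srsf10 was detected in 8.

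Other pairs were divided. Srsf3 was above Srsf7 in 8 cells and below it in 5. Hnrnph1 was above Hnrnph2 in 9 and below it in 5, and Hnrnpa2b1 was above Hnrnpa3 in 8 and below it in 6. Srsf1 and Srsf9 were each at 10 or more together in 2 cells, GL_M_47 and GL_M_60. Clk2 and Clk3 were both below 1 in 10 cells, and in the other 4 each was the higher in 2.

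**Figure D3:**
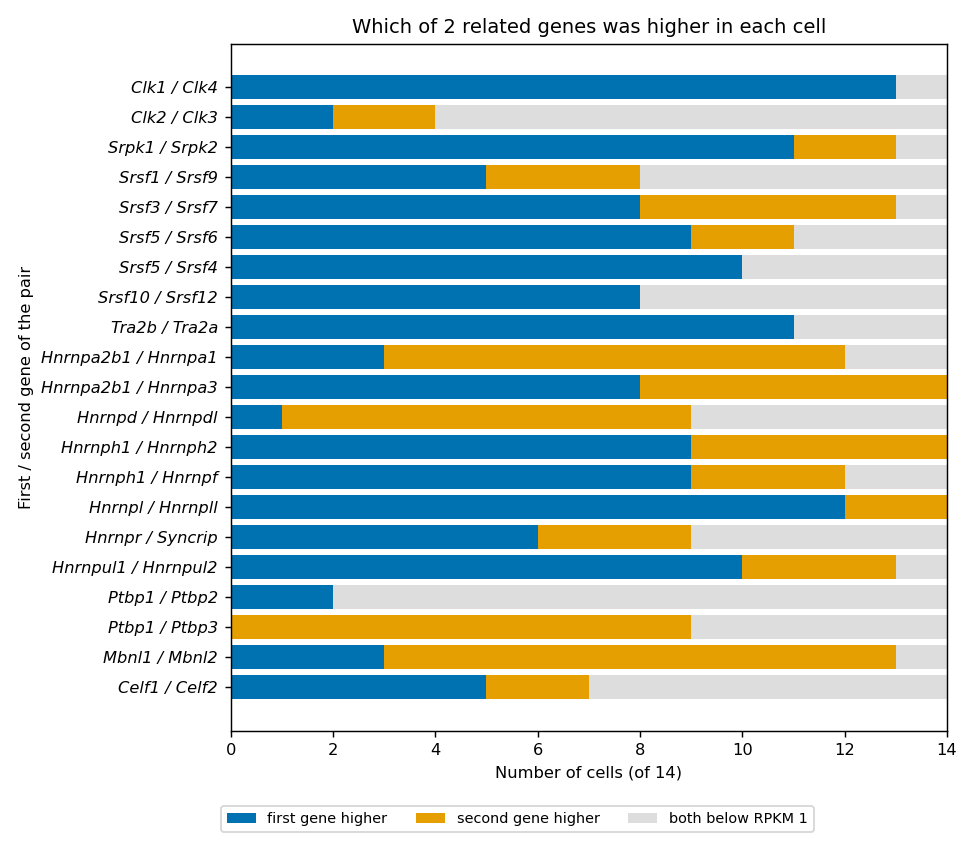
Number of cells, of 14, in which the first or the second gene of each of 21 related pairs had the higher RPKM; cells with both genes below 1 are grey. Clk1, Tra2b and Srsf5 were higher than Clk4, Tra2a and Srsf4 in every cell with either gene detected, whereas Srsf3 with Srsf7 and Hnrnph1 with Hnrnph2 were divided between cells.

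The number of members detected followed the number of all genes detected. Between 20 and 41 of the 49 members were at 1 or more in a cell (mean 27.8 ± 6.22, SD over 14 cells of 1 mouse). GL_M_36 and GL_M_47, with 5277 and 4842 genes, had the most members, 41 and 37. GL_M_51 and GL_M_55 had the fewest, 20 each, and GL_M_91 had 21. Across the 14 cells Pearson's r between the 2 counts was 0.91 and Spearman's rho 0.79, and without GL_M_36 and GL_M_47 they were 0.77 and 0.67. The cells share 1 animal and the members are part of the gene total, so these are descriptions. With the number of reads the members detected had a Pearson's r of -0.24.

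**Figure D4:**
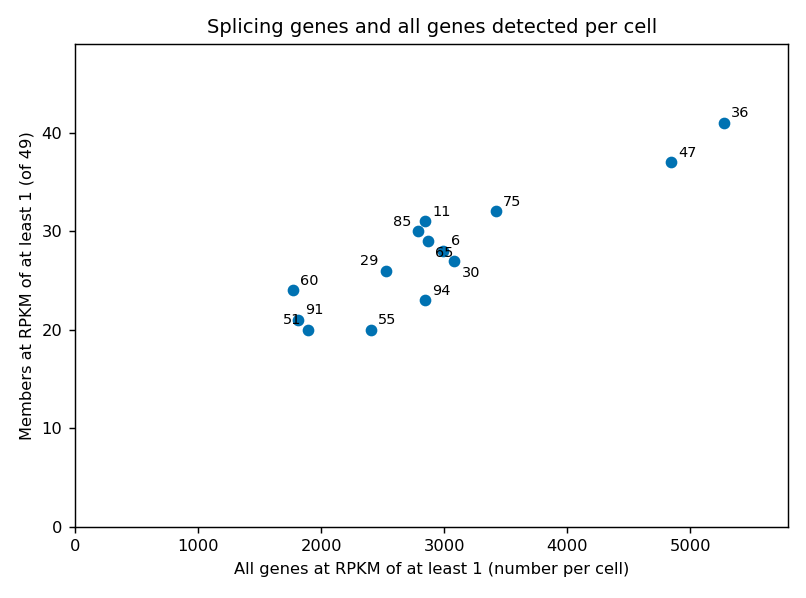
Number of the 49 members at an RPKM of at least 1 (vertical axis) against the number of all genes at that level (horizontal axis) in each of the 14 cells, labelled by the number in the cell's name. GL_M_36 and GL_M_47 lie at the upper right with 41 and 37 members, and GL_M_51 and GL_M_55 are lowest with 20.

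The members took 0.540% to 3.07% of a cell's RPKM total, highest in GL_M_55, where Clk1 alone was at 7062. What made up that sum differed between cells. The kinases, through Clk1, held 43.2% of it in GL_M_55 and 0.161% in GL_M_91. The classical SR proteins held 52.9% in GL_M_60, through Srsf1, and 0.620% in GL_M_75. SR-like proteins held 49.8% in GL_M_91, through Rbm25 and Srsf10, and the further regulators 40.3% in GL_M_51, where Qk was at 629. GL_M_55 is also the cell with the most podocyte markers at 10 or more, and the part of those transcripts in its high Clk1, Srsf3, Srsf6 and Tra2b was not tested.

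Members did not rise and fall together as a set. Over 861 pairs of the 42 members averaging 10 RPKM or above, the median Spearman's rho was 0.05, and it was also 0.05 over all pairs of 5008 genes at that level. A rho of at least 0.5 was found for 4.07% of member pairs and 6.44% of all pairs. For -0.5 or lower the shares were 3.25% and 3.38%. At 0.7 or above were 3 of the 861 member pairs and 129211 of the 12537528 pairs of all genes. The highest member pairs, chosen after their values were seen, were Hnrnph2 with Hnrnph3 at 0.81, Clk1 with Rbm39 at 0.75 and Hnrnpa0 with Mbnl1 at 0.72. The lowest was Hnrnph1 with Hnrnph2 at -0.72. Without 1 cell at a time these ran from 0.78 to 0.84, from 0.70 to 0.84, from 0.67 to 0.76 and from -0.80 to -0.65. The pairs were picked as extremes in these same cells, so the ranges are not a check on them.

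The spread between cells was, for most members, near the median of genes in the same bin of mean level. The median SD of log2(RPKM + 1) was 3.10 over the 49 members. Of 45 members averaging 1 RPKM or above, 24 had a lower SD than the median of genes in the same bin, and 21 a higher one or the same. As differences from that median, Hnrnpl was at -2.61, Hnrnpul1 at -1.18, Rbm39 at -0.70 and Hnrnpa1 at -0.60. Above it were Clk1 by 1.09 and Srsf10 by 0.96. All of these but Hnrnpul1 are in the highest bin, whose means ran from 4.12 to 14.6. Level was thus only loosely matched there. Clk1 had a mean of 8.59 ± 4.36 and Srsf2 of 8.56 ± 3.69.

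**Figure D5:**
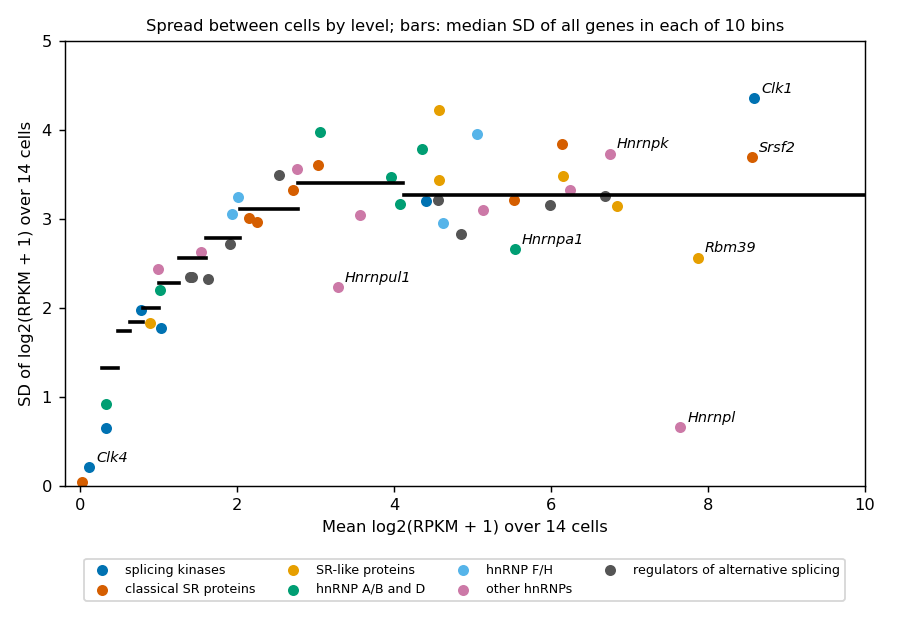
SD of log2(RPKM + 1) over the 14 cells against its mean for the 49 members (points, coloured by class); black bars give the median SD in each of 10 bins by mean level of the 7976 genes averaging at least 1 RPKM. Most points lie near the bars, Hnrnpl lies far below at 0.66 and Clk1 lies above at 4.36.

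Other genes of the splicing machinery were described through 6 further lists. Core spliceosome genes were less widespread than the members by these counts: 39 of the 40 listed were in the table, none was detected in every cell, and 8 (20.5%) were at 10 or more in 7 or more cells, against 25 of 49 members. Their median was 5 cells with detection, against 8 for the members. The highest by median were Sf3b6 at 47.7, Snrpg at 39.8 and Sf3b1, a subunit of the U2 snRNP, at 37.5. Of 20 SR-related and speckle genes, 9 were at 10 or more in 7 or more cells, led by Rsrp1 at 432, Bclaf1 at 216 and Nktr at 166. Son, a scaffold of nuclear speckles, was named after its values were seen. It was at 24.1 to 606 in all 14 cells, and it was the only listed gene besides Hnrnpl at 10 or more in every cell.

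Of 12 other kinases, phosphatases and importins, the highest were Ppp1cb at 198, Hipk1 at 149 and Dyrk1a at 34.1, and Srpk3, a kinase of muscle, was listed at 0 throughout. Among 22 other hnRNP-like genes the highest were Tial1 at 191, Matr3 at 90.5 and Ewsr1 at 84.5. In the list of exon junction and nonsense-mediated decay genes, Eif4a3 was at 90.7 and Upf1 at 42.1.

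Of 22 tissue-restricted splicing regulators 18 were below 1 in every cell. These were Rbfox1, Rbfox3, Nova1, Nova2, Celf3, Celf4, Celf5, Celf6, Elavl2, Elavl3, Elavl4 and Srrm4, known mainly from neurons, Esrp1, Esrp2 and Rbm47 from epithelia, Rbm20 and Rbm24 from striated muscle, and Rbpms2. Rbpms, known as a splicing regulator of smooth muscle, differed from these, reaching 10 in 9 cells, with 51.1 at the median and 763 in GL_M_55. Khdrbs3 passed 10 in 4 cells, with 1031 in GL_M_51, and Mbnl3 was at 10 or more in 4, up to 336 in the same cell.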

How the data were processed

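The authors deposited RPKM, a read count scaled to gene length and to the reads of the cell, with 1 column for each of the 14 cells per the file headers. Per the submitters' processing notes, TopHat2 2.0.12, HTSeq 0.6.1 and mm10 were used. Not given in the sources used here were the annotation release, strand setting, read length, cell filter and treatment of reads with several positions. Of 35271 Ensembl gene IDs, 34488 matched a symbol of GENCODE M21 (GRCm38), including all 49 members. The log scale is log2(RPKM + 1). Detection required 1 RPKM, and a higher limit of 10 was also used.

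The reads of each cell were estimated from value steps at genes with 1 annotated transcript, where 85.0% to 89.9% of values up to 50 reads fell within 0.02 of a whole read. The method was first tested on simulated data. Reads behind a member's value are approximate, because the lengths used were those of GENCODE M21 and not the authors'.

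There was 1 mouse and 1 group, so cells are not replicates of a condition, no test was made, and the SDs describe these cells only. The members, classes, pairs and lists were chosen with earlier results of these data known. By the rule for named genes, every member is placed in its class and described, with fuller values for the highest member of each class, members detected in every cell, on or off members and the pairs. Of each other list the 3 highest members and those undetected are named, except 1 that is not reported here, and other names were chosen after their values were seen. Sequence shared with other genes was the percentage of a gene's 50-base stretches that occur, on either strand, in an annotated transcript of another gene. Alternatives were another pseudocount, other detection limits, an equal RPKM total per cell and cells left out. Analyses used Python 3.11.15, pandas 2.3.3 and scipy 1.17.1.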

Additional observations from a re-analysis of the deposited data

How the results depend on the processing

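The limit for detection mattered most. Counting any value above 0, 22 members were in every cell in place of 3, 0 were in no cell in place of 2, and 44 were above 0 in 7 or more cells, against 25 at 10 or more. At a limit of 5 only Hnrnpl, 1 member, was in every cell. Shares over all genes were computed only at the limits of 1 and 10, so these counts have none beside them. Leaving out each cell in turn gave 3 to 5 members in every cell, with Clk1 and Qk added without GL_M_60, Srsf3 without GL_M_51 and Rbm39 without GL_M_91, and 2 to 3 members in no cell. The median SD over members was 3.10. It was 3.79 with a pseudocount of 0.1, 3.16 over members with a mean RPKM of at least 1, 3.17 without GL_M_36 and GL_M_47, and 2.98 to 3.15 with 1 cell left out. Without GL_M_36 and GL_M_47, 18 members were at 10 or more in 7 or more cells. Here too the limit of 7 cells was kept with fewer cells, and no background share was computed. An equal RPKM total per cell moved none of the 49 mean log2 levels by more than its SD, and a pseudocount of 0.1 moved 9. The RPKM totals ran only from 533070 to 630398, so equal totals could not shift a level that far. Counting only differences of at least 2-fold, Hnrnpa2b1 exceeded Hnrnpa3 in 5 cells and was exceeded in 6, the only one of the 21 pairs to turn. No paired analysis was possible because there was 1 group.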
